A study of Rattus norvegicus with 9 samples.

Results

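The genes described here are 10 cadherins and factors of epithelial-mesenchymal transition (EMT), chosen by name: Cdh1, Cdh2, Cdh3, Cdh11, Snai1, Snai2, Zeb1, Zeb2, Twist1 and Vim. In the array annotation, 9 of the 10 have at least 1 probe set of their own, and together they have 19 of the 31042 probe sets tested. Snai2 has none and is not analysed here. Whole pieces of bladder were measured from female SD rats labelled as 10 weeks old, with 3 arrays in each of 3 groups. The tumors were bladder transitional cell carcinomas of rats whose bladders had received the alkylating carcinogen MNU (N-methyl-N-nitrosourea) at 20 mg/ml, once a week for 10 weeks. Adjacent tissue is the normal-looking bladder beside the tumors of those rats and so had the same MNU exposure, and normal bladder came from separate healthy rats. The label text on treatment mentions MNU for all 9 samples, and only the series design says that the last 3 rats were normal.

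Cadherins are membrane proteins that join cells by binding cadherins of the neighbouring cell, with catenins tying their tails to actin. In EMT, as textbooks describe it, epithelial cells lose E-cadherin and gain N-cadherin and vimentin, while transcription factors of the Snail, ZEB and Twist families rise and repress Cdh1 through E-box motifs in its promoter. In the bladder, E-cadherin and P-cadherin belong to the urothelium, whereas N-cadherin, cadherin-11, the ZEB factors, Twist1 and vimentin are also found in the connective tissue, muscle and nerves of the wall.

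Against normal bladder, the epithelial cadherins Cdh1 and Cdh3 were higher in tumors, and Cdh2 and the repressor gene Zeb1 were lower. Of the 9 measured genes, each by its brightest probe set, 2 rose and 2 fell in tumors at an adjusted p under 0.05 (limma, n = 3 arrays per group). Over all 14217 genes, 13.6% rose and 9.95% fell, 23.5% in all. In adjacent tissue 1 of the 9 rose and 4 fell, where 13.3% of all genes rose and 11.5% fell, 24.8% in all. The values of the 2 groups did not overlap for 5 of the 9 genes in tumors against normal bladder (45.8% of all genes) and for 6 in adjacent tissue against normal bladder (46.7% of all genes). Both comparisons use the same 3 normal arrays. The median log2 difference of the 9 genes was -1.46 in tumors and -0.40 in adjacent tissue, beside 0.05 and 0.01 over all genes.

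**Figure D1:**
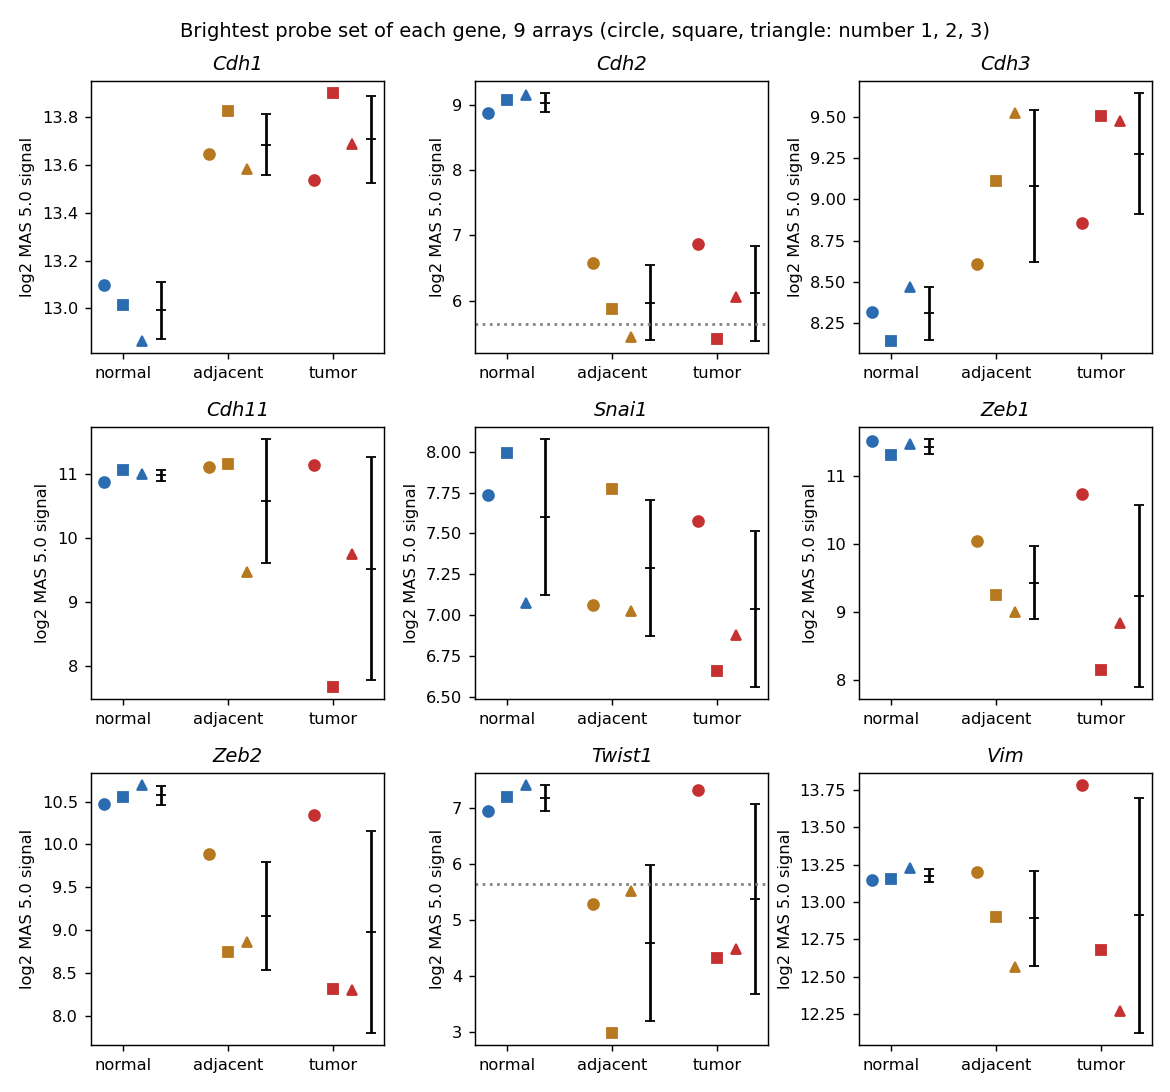
Log2 MAS 5.0 signal of the brightest probe set of each of the 9 measured genes; each point is 1 array (circle, square and triangle for numbers 1, 2 and 3), black bars show the group mean and SD, and the dotted line marks a signal of 50. Cdh1 and Cdh3 lie above the normal arrays in all tumor and adjacent arrays, Cdh2 and Zeb1 lie below them, and tumor 1 stands near the normal level for Zeb2, Twist1 and Cdh11.

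Signals are the log2 values of the MAS 5.0 algorithm, and a linear signal of 50 (5.64 on the log2 scale) was taken as the level under which a value is dim and its fold uncertain. The bladder label was borne out by uroplakins, the plaque proteins of the urothelial surface: Upk3a stood between 13.5 and 14.2 and Upk1b between 13.0 and 14.1 on all 9 arrays. Not all uroplakins held their level: against normal bladder, Upk1a fell by 1.31 in tumors (adjusted p = 0.0482 by limma). Upk2 was lower there by 2.10 with no overlap but did not pass (adjusted p = 0.0652). In adjacent tissue the log2 differences of Upk1a and Upk2, -0.83 and -1.49, did not pass. Median log2 signal ranged from 6.87 to 7.23 over the arrays. The arrays stood apart in the genes of the bladder wall. The summed signal of 12 smooth muscle markers, such as Myh11 and Des, was 65.9%, 2.49% and 2.83% of the normal mean in tumors 1, 2 and 3, and 32.9%, 9.84% and 4.27% in adjacent samples 1, 2 and 3. The 11 fibroblast markers stood at 80.4%, 8.92% and 17.6% in those tumors, and at 63.7%, 51.4% and 21.3% in those adjacent samples. The 4 measured of 6 Schwann cell markers stood at 60.4%, 6.88% and 7.12%, and at 37.1%, 21.2% and 8.91%. The 12 measured of 14 urothelial markers ranged from 113% to 133% in tumors and from 84% to 124% in adjacent tissue, the 8 of 9 endothelial markers from 107% to 134% and from 111% to 120%, and the 10 of 11 leukocyte markers from 130% to 163% and from 153% to 209%. Such sums of linear signal weigh bright markers most. For endothelial markers the median log2 difference was -0.44 in tumors and -0.32 in adjacent tissue, with sums above the normal mean. Cd79b, a B cell marker, was under the signal limit on all arrays. Tumor 1 thus held far more transcript of muscle, fibroblasts and Schwann cells than tumors 2 and 3. In whole tissue, fewer cells of a type and less RNA per cell cannot be told apart.

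Cdh1 encodes E-cadherin, the main cadherin of epithelial adherens junctions. Its brighter probe set had log2 signals of 13.54, 13.90 and 13.69 in tumors, 13.65, 13.83 and 13.59 in adjacent samples and 13.10, 13.01 and 12.86 in normal bladder (numbers 1, 2 and 3 in each group, as in the following sentences). Every tumor and every adjacent sample was above every normal bladder, and tumors and adjacent samples overlapped. Cdh1 rose by 0.72 on the log2 scale in tumors (1.64-fold, SE 0.14, adjusted p = 0.0149) and by 0.69 in adjacent tissue (1.62-fold, SE 0.12, adjusted p = 0.00803). The other Cdh1 probe set was dim on all 9 arrays, so no fold is given for it.

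Cdh3 encodes P-cadherin, which basal cells of stratified epithelia carry, and in the RefSeq gene order it is the next protein-coding gene to Cdh1. Its single probe set read 8.86, 9.5 and 9.47 in tumors, 8.61, 9.11 and 9.53 in adjacent samples and 8.32, 8.14 and 8.47 in normal bladder. All tumor and adjacent values lay above the normal ones, with sample 1 the lowest of its group in both tissues. Cdh3 rose by 0.97 in tumors (1.96-fold, SE 0.21, adjusted p = 0.0234). In adjacent tissue the log2 difference was 0.77 (SE 0.25, adjusted p = 0.0671) and did not pass. Of 16 alternatives to that fit, 14 did not pass either (largest adjusted p = 0.207, without normal array 2). Cdh3 passed when each array was centred on its median (adjusted p = 0.0328) or without adjacent sample 1 (adjusted p = 0.0117).

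Cdh2 encodes N-cadherin, a cadherin of nerve, muscle and mesenchymal cells that carcinoma cells can gain in EMT. Its brightest probe set read 6.87, 5.42 and 6.06 in tumors, 6.58, 5.88 and 5.45 in adjacent samples and 8.87, 9.07 and 9.14 in normal bladder. The 6 samples of tumor-bearing rats lay together, well under the normal bladders, and 1 tumor and 1 adjacent sample were dim. Cdh2 fell by 2.91 in tumors (SE 0.36, adjusted p = 0.00469), which left 8.19% to 22.4% of the normal level, and by 3.06 in adjacent tissue (SE 0.31, adjusted p = 0.00113), which left 8.39% to 18.4%. The second Cdh2 probe set read 6.73, 5.32 and 2.88 in tumors, 6.41, 6.18 and 4.54 in adjacent samples and 7.86, 8.08 and 8.44 in normal bladder. It fell as well, with log2 differences of -3.15 in tumors (SE 0.88, adjusted p = 0.0485) and -2.42 in adjacent tissue (SE 0.50, adjusted p = 0.0137). Its tumor call was lost when tumor 2 or any single normal array was left out (largest adjusted p = 0.151), and its adjacent call when normal array 2 or 3 was (largest adjusted p = 0.0683). The dimmest probe set was dim on 8 of the 9 arrays, with values of 3.07 to 5.82. It showed no such fall, with a log2 difference of -0.71 in tumors (adjusted p = 0.511) and -0.01 in adjacent tissue (adjusted p = 0.991).

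Cdh11 encodes cadherin-11, a cadherin of fibroblasts and other mesenchymal cells. Its brightest probe set read 11.14, 7.67 and 9.74 in tumors, 11.11, 11.16 and 9.46 in adjacent samples and 10.88, 11.05 and 11 in normal bladder. Tumor 1 and adjacent samples 1 and 2 were just above the normal bladders, while tumors 2 and 3 and adjacent sample 3 were clearly below. The log2 difference was -1.46 in tumors (SE 0.76, 95% confidence interval -3.25 to 0.33, adjusted p = 0.235) and -0.40 in adjacent tissue (SE 0.41, interval -1.36 to 0.56, adjusted p = 0.565). Neither passed, and neither did the other 2 probe sets, whose log2 differences were -1.86 and -1.10 in tumors and -0.85 and -0.88 in adjacent tissue. The dimmest of them reached a signal of 50 only in 2 normal bladders.

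**Figure D2:**
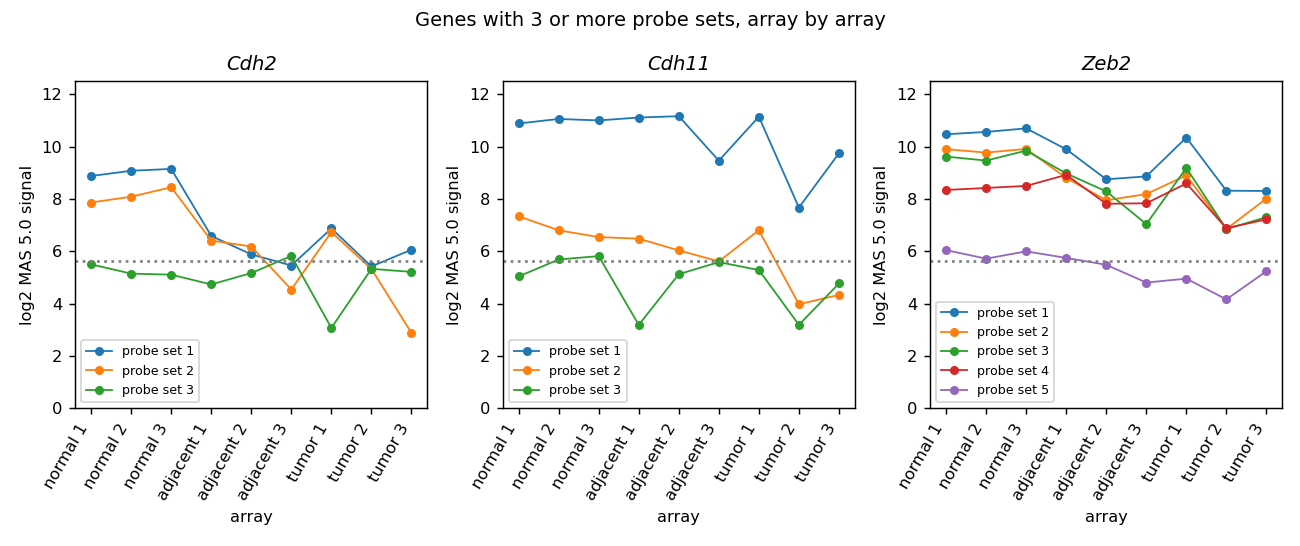
Log2 MAS 5.0 signal of every probe set of Cdh2, Cdh11 and Zeb2 on each of the 9 arrays; lines only join the values of 1 probe set, numbered from the brightest, and the dotted line marks a signal of 50. The brighter probe sets of each gene move together across the arrays, and the dimmest Cdh2 probe set, with values of 3.07 to 5.82, does not follow the other 2.

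Zeb1 and Zeb2 encode zinc finger repressors that bind E-boxes with the core CAGGTG, in the Cdh1 promoter among others. Zeb1 read 10.72, 8.14 and 8.83 in tumors, 10.03, 9.25 and 9.0 in adjacent samples and 11.51, 11.31 and 11.46 in normal bladder. All 6 samples of tumor-bearing rats were below the normal bladders, with sample 1 the highest of its group in both tissues. Zeb1 fell by 2.2 in tumors (4.58-fold lower, SE 0.59, adjusted p = 0.0423) and by 2.0 in adjacent tissue (4.0-fold lower, SE 0.25, adjusted p = 0.00231). The tumors held 61.4%, 10.2% and 16.5% of the normal Zeb1 level, beside 65.9%, 2.49% and 2.83% for the smooth muscle, 80.4%, 8.92% and 17.6% for the fibroblast and 60.4%, 6.88% and 7.12% for the Schwann cell markers in the same arrays. The adjacent samples held 38.0%, 22.0% and 18.6% of the normal Zeb1 level, beside 32.9%, 9.84% and 4.27%, 63.7%, 51.4% and 21.3%, and 37.1%, 21.2% and 8.91% for those 3 sets in the same order. What part the markers of muscle, fibroblasts and Schwann cells have in the lower Zeb1 was not tested.

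Zeb2 has 5 probe sets. The brightest read 10.34, 8.31 and 8.30 in tumors, 9.89, 8.75 and 8.86 in adjacent samples and 10.47, 10.56 and 10.69 in normal bladder. Tumor 1 lay just under the normal bladders and tumors 2 and 3 lay at about a log2 signal of 8.3. Zeb2 fell by 1.41 in adjacent tissue (2.65-fold lower, SE 0.29, adjusted p = 0.0143), whereas in tumors the log2 difference of -1.59 (SE 0.52, adjusted p = 0.0773) did not pass. Of the other probe sets, numbered from the brightest, probe set 2 fell by 1.94 in tumors (adjusted p = 0.0297) and fell by 1.55 in adjacent tissue (adjusted p = 0.00407), and probe set 3 fell by 1.54 in adjacent tissue (adjusted p = 0.0441). The tumor call of probe set 2 was lost when tumor 3 or any single normal array was left out (largest adjusted p = 0.102), and the adjacent call of probe set 3 when adjacent sample 2 or any single normal array was (largest adjusted p = 0.149). The 5 probe sets were all lower on average in both tissues, with log2 differences of -0.85 to -1.94 in tumors and -0.23 to -1.55 in adjacent tissue.

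Promoter sequence is shown for the 2 ZEB genes, which encode repressors of one family, and for Snai1, whose window holds the same motif as that of Zeb1. Each run is the 250 bases before the transcript start in the RefSeq promoter table of build GRCr8, read 5′ to 3′ on the gene's strand, with CAGGTG or its other-strand form CACCTG in capitals. The Zeb1 window is chr17:56810654-56810903, minus strand, the Zeb2 window is chr3:49754324-49754573, minus strand, and the Snai1 window is chr3:176667226-176667475, plus strand.
Zeb1: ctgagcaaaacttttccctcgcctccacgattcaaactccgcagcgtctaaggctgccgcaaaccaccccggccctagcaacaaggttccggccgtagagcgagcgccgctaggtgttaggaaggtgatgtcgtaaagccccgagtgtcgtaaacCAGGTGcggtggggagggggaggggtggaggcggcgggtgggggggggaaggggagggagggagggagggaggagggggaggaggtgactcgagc
Zeb2: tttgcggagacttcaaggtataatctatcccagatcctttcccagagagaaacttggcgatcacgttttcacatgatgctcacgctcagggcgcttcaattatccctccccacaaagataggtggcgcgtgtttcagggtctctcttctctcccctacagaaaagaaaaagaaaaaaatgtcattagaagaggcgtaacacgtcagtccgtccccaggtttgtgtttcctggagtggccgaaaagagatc
Snai1: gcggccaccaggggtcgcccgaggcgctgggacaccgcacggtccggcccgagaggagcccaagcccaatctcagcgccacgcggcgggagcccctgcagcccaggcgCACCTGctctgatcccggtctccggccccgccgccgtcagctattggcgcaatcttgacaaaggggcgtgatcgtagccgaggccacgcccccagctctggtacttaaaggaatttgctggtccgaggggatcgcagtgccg
Promoters of 5 of the 10 genes were matched in that table (Zeb1, Zeb2, Snai1, Twist1 and Vim). Zeb1 has 1 CAGGTG, which begins 95 bases before the start, and Snai1 has 1 CACCTG, which begins 142 bases before it, while the windows of Zeb2, Twist1 and Vim have 0. Of all 33469 promoters of the table, 15.9% hold the motif on either strand within the same 250 bases. The looser E-box CANNTG, which includes CAGGTG, is present in 65.5% of them, and occurs once each in the windows of Zeb1, Zeb2 and Snai1. A match is a string of letters and says nothing about binding in these samples.

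Snai1 encodes Snail, a zinc finger repressor that often starts EMT in development and that is short-lived as a protein. Its probe set read 7.57, 6.66 and 6.88 in tumors, 7.06, 7.77 and 7.03 in adjacent samples and 7.74, 8.00 and 7.07 in normal bladder. The 3 groups overlapped. The log2 difference was -0.56 in tumors (SE 0.34, 95% confidence interval -1.37 to 0.24, adjusted p = 0.308) and -0.31 in adjacent tissue (SE 0.33, interval -1.07 to 0.45, adjusted p = 0.57), so that the intervals allow at most a rise of 0.24 and 0.45 on the log2 scale.

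Twist1 encodes a basic helix-loop-helix factor of mesenchyme. Its brighter probe set read 7.33, 4.32 and 4.48 in tumors, 5.28, 2.99 and 5.51 in adjacent samples and 6.95, 7.18 and 7.40 in normal bladder. Tumor 1 was among the normal values, and the other 5 samples of tumor-bearing rats were dim. Twist1 was called lower in adjacent tissue (adjusted p = 0.0312), at least 2.90-fold when the adjacent level is set at the limit of 50, but not in tumors (log2 difference -1.80, SE 0.78, adjusted p = 0.157). The dimmer probe set was under the limit on all 9 arrays and no fold is given for it (adjusted p = 0.0304 in tumors and 0.281 in adjacent tissue).

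Vim encodes vimentin, the intermediate filament of mesenchymal cells, endothelium and leukocytes. It read 13.78, 12.68 and 12.27 in tumors, 13.20, 12.90 and 12.57 in adjacent samples and 13.15, 13.15 and 13.23 in normal bladder. Tumor 1 had the highest of all 9 values and tumor 3 the lowest, so the tumors spanned the normal bladders. The log2 difference was -0.27 in tumors (SE 0.35, 95% confidence interval -1.09 to 0.56, adjusted p = 0.648) and -0.29 in adjacent tissue (SE 0.17, interval -0.67 to 0.10, adjusted p = 0.289). The 3 tumors held 152%, 70.7% and 53.3% of the normal level.

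**Figure D3:**
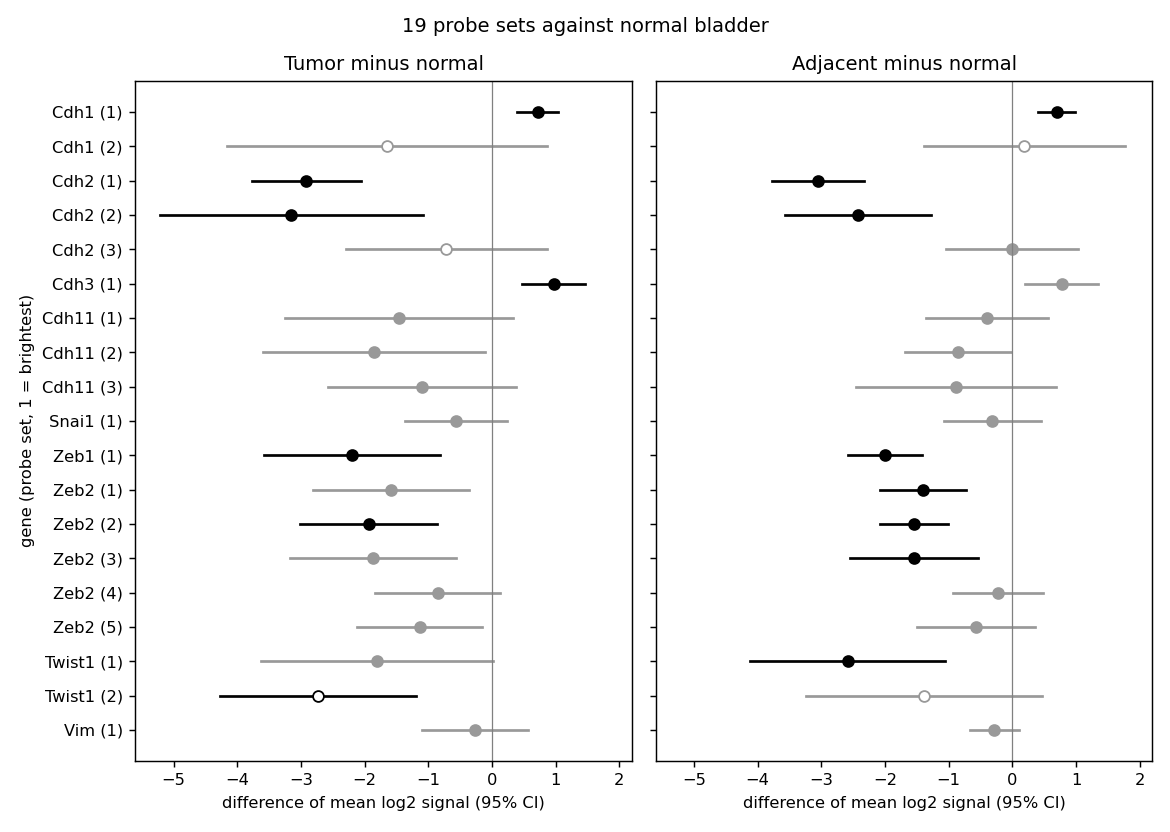
Difference of mean log2 signal, tumor minus normal (left) and adjacent minus normal (right), for the 19 probe sets, with 95% confidence intervals from limma; black marks pass an adjusted p under 0.05, grey marks do not, and open circles are dim on all arrays of both groups. Cdh1 and Cdh3 are the genes to the right of 0 in both panels by their brightest probe sets, and Cdh2 lies farthest to the left among the brightest probe sets.

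Between tumors and adjacent tissue of the same rats, none of the 9 genes differed by limma in a fit without pairing. Of 19 probe sets, 0 passed the adjusted threshold and 0 had an unadjusted p under 0.05, the smallest being 0.12. Over all genes 0% were called (0% higher and 0% lower), 845 of 31042 probe sets had an unadjusted p under 0.05, and the values of the 2 groups did not overlap for 7.06% of genes and for 0 of the 9. For Cdh1 the log2 difference was 0.02 (SE 0.16, 95% confidence interval -0.36 to 0.40), and for Cdh3 it was 0.20 (SE 0.29, interval -0.49 to 0.88). The intervals were wider for Cdh2 (0.14, -1.04 to 1.32), Zeb1 (-0.19, -1.65 to 1.26), Twist1 (0.78, -1.57 to 3.14) and Cdh11 (-1.06, -3.04 to 0.92). They therefore allow differences of over 1 on the log2 scale in either direction for Cdh2, Zeb1 and Twist1, and these tests do not show that the tissues were alike.

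The calls of these genes depended on single arrays in different ways. In tumors, Cdh2 passed without each of the 6 arrays in turn (largest adjusted p = 0.0335). Cdh1 lost its call when tumor 3 or any single normal array was left out (largest adjusted p = 0.07), and Cdh3 and Zeb1 lost theirs when tumor 2, tumor 3 or any single normal array was (largest adjusted p = 0.0946 and 0.132). Without tumor 1, the tumor array with the most muscle and fibroblast transcript, 2 of the 9 genes rose and 6 fell, where 37.9% of all genes were called. The log2 difference of Cdh11 was then -2.27 (adjusted p = 0.0127), that of Zeb2 -2.27 (adjusted p = 1.9e-05), that of Twist1 -2.78 (adjusted p = 0.00086) and that of Vim -0.70 (adjusted p = 0.00603). In adjacent tissue, Cdh1, Cdh2 and Zeb1 passed without each array in turn, Zeb2 and Twist1 lost their calls when any single normal array was left out (largest adjusted p = 0.0672 and 0.116), and Vim fell by 0.44 without adjacent sample 1 (adjusted p = 0.0479). The 3 tumors were not alike: tumor 1 held 112% of the normal Cdh11 level, 111% of Twist1 and 85.2% of Zeb2, while tumor 2 held 10.1%, 13.8% and 20.9%.

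**Figure D4:**
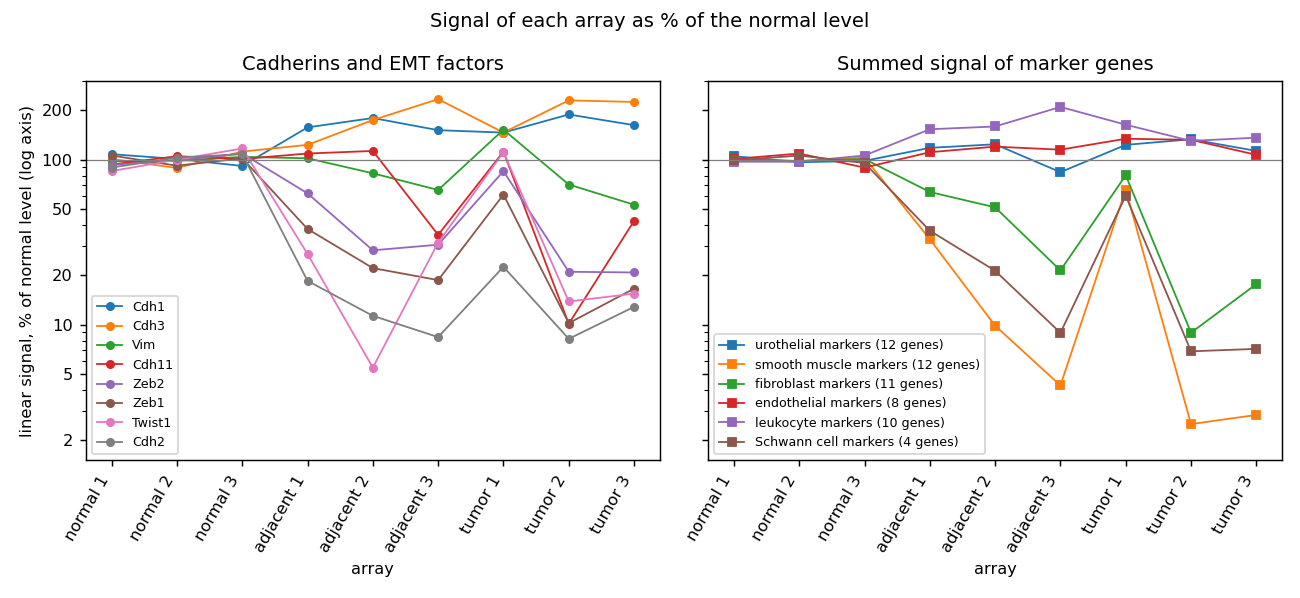
Linear signal of 8 of the genes (left, brightest probe set) and summed linear signal of 6 sets of cell type markers (right) on each array, as percent of the mean of the normal arrays (of log2 values on the left, of linear sums on the right), on a log axis; lines only join values of 1 gene or set. Smooth muscle markers drop to 2.49% in tumor 2 and stand at 65.9% in tumor 1, and Zeb1 stands at 10.2% and 61.4% in the same arrays, while Cdh1 lies between 146% and 188% in tumors.

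The lower Cdh2 and Zeb1 and the higher Cdh1 stood beside lower levels of most markers of the bladder wall. Cdh2 (brightest probe set) stood at 22.4%, 8.19% and 12.8% of the normal level in tumors 1, 2 and 3, with tumor 2 dim. The smooth muscle markers stood at 65.9%, 2.49% and 2.83% there. Fibroblast markers stood at 80.4%, 8.92% and 17.6%, and Schwann cell markers at 60.4%, 6.88% and 7.12%. Tumor 1 was thus farther below normal in Cdh2 than in these marker sets. The counts of called markers changed with the array left out. Over all genes 13.6% rose and 9.95% fell in tumors, and 13.3% rose and 11.5% fell in adjacent tissue. Of 12 smooth muscle markers, 6 fell and 0 rose in tumors, and 12 fell in adjacent tissue (median log2 difference -4.02 and -3.73). Without tumor 1 all 12 fell in tumors, and with any other array of that comparison left out 0 passed. Of 11 fibroblast markers, 1 fell in tumors and 6 in adjacent tissue (median -2.40 and -1.22). Of these 11 markers, 9 and 10 were lower with no overlap, beside 45.8% and 46.7% of all genes with no overlap in either direction. In tumors 10 of the 11 fell without tumor 1, 0 fell with any other array left out, and 1 rose without tumor 3. In adjacent tissue 9, 4 and 10 fell without adjacent samples 1, 2 and 3, and 1 fell with any single normal array left out. Of 4 Schwann cell markers, 2 fell in tumors and 3 in adjacent tissue (median -2.17 and -2.54). In tumors 3 fell without tumor 1 and 0 with any other array left out. The share of all genes called changed with the array left out. Against tumors it was 37.9%, 15.9% and 11.9% without tumors 1, 2 and 3. Without normal samples 1, 2 and 3 it was 6.72%, 6.34% and 7.28%. Against adjacent tissue it was 29.5%, 21.1% and 25.4% without adjacent samples 1, 2 and 3. Without normal samples 1, 2 and 3 it was 11.7%, 11.7% and 12.2% there.

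The next counts stand beside 13.6% of all genes higher and 9.95% lower in tumors, and 13.3% and 11.5% in adjacent tissue. Counts near those shares are not read as a result about a list. Of 12 urothelial markers, 3 rose and 2 fell in tumors, and 2 rose and 2 fell in adjacent tissue. In tumors 4 rose and 4 fell without tumor 1, 2 rose and 1 fell without tumor 2 or 3, and 2 rose and 0 fell with any single normal array left out. Krt5, the keratin of basal cells, rose by 3.58 in tumors (adjusted p = 0.000289) and by 3.72 in adjacent tissue (adjusted p = 0.000211). Krt20, the keratin of umbrella cells, fell by 3.82 in tumors (adjusted p = 0.0208) and fell by 1.70 in adjacent tissue (adjusted p = 0.00528). Krt19 rose by 1.10 in tumors (adjusted p = 0.00389) and by 0.81 in adjacent tissue (adjusted p = 0.00746). Krt18 fell by 1.08 in adjacent tissue (adjusted p = 0.0483). Of 8 endothelial markers, 2 rose and 0 fell in tumors and 3 rose and 0 fell in adjacent tissue, but the other members made the median log2 difference -0.44 and -0.32. Without tumor 1, 2 of the 8 rose and 3 fell in tumors. In adjacent tissue 2 rose and 1 fell without adjacent sample 1, 1 rose and 2 fell without adjacent sample 2, and 1, 2 and 1 rose without normal samples 1, 2 and 3. Of 10 leukocyte markers, 2 rose in tumors and 4 in adjacent tissue, with 0 lower (median 0.35 and 0.81). In tumors 2 rose and 1 fell without tumor 1, 3 rose without tumor 2, and 0 passed without tumor 3 or any single normal array. The part of these markers' tissues in the cadherin and EMT factor changes was not tested.

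Other genes that keep or mark the epithelial state were higher in both tissues. Of 14 measured genes of that list, 11 rose and 0 fell in tumors, with a median log2 difference of 1.12, beside 13.6% of all genes higher and a median of 0.05. In adjacent tissue 11 rose and 0 fell as well, with a median of 1.12. Elf3, an epithelial ETS factor, rose by 2.58 in tumors (SE 0.38, adjusted p = 0.00723) and by 2.43 in adjacent tissue (adjusted p = 0.00551). Crb3, a polarity protein of the apical membrane, rose by 2.07 (SE 0.19, adjusted p = 0.00232) and by 2.17 (adjusted p = 0.000602). The count was 12 without tumor 1, 7 without tumor 2 or 3 and 5 with any single normal array left out. In adjacent tissue it was 12, 8 and 11 without adjacent samples 1, 2 and 3, and 8 with any single normal array left out.

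Among 18 other cadherins and catenins, 4 rose and 2 fell in tumors, and 4 rose and 1 fell in adjacent tissue, with median log2 differences of 0.02 and 0.01, beside 23.5% and 24.8% of all genes called in either direction. Jup, which encodes plakoglobin of desmosomes and adherens junctions, rose by 1.43 in tumors (SE 0.17, adjusted p = 0.004) and by 1.29 in adjacent tissue (adjusted p = 0.00291). Cdh17, a cadherin best known from intestine, rose by 1.09 (adjusted p = 0.0325) and by 1.04 (adjusted p = 0.0367). Ctnnal1, an alpha-catenin-like gene, fell by 1.21 (adjusted p = 0.00696) and by 1.23 (adjusted p = 0.00912), and Ctnna2 was called lower in tumors but dim in both groups. Of the catenins that bind E-cadherin, named here after their values were seen, Ctnnd1 (p120-catenin) rose by 0.64 in tumors (adjusted p = 0.0267) and by 0.71 in adjacent tissue (adjusted p = 0.0192). Ctnnb1 and Ctnna1 (beta- and alpha-catenin) had log2 differences of 0.32 and 0.30 in tumors that did not pass (adjusted p = 0.104 and 0.151). In tumors, the 6 calls became 7 without tumor 1, 4 without tumor 2 and 2 without tumor 3 or any single normal array. In adjacent tissue, the 5 calls became 6, 3 and 5 without adjacent samples 1, 2 and 3, and 2 without any single normal array.

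Among 11 other EMT transcription factors, 1 rose and 1 fell in tumors, and 2 rose and 2 fell in adjacent tissue, with median log2 differences of -0.79 and -0.46. Over all genes 13.6% rose and 9.95% fell in tumors, and 13.3% rose and 11.5% fell in adjacent tissue, and the counts of 1 or 2 of 11 in each direction are read against those shares and not as a result about the list. Ets1, a factor of endothelium, lymphocytes and invasive cells, rose by 0.74 (SE 0.18, adjusted p = 0.033) and by 0.72 (adjusted p = 0.00805). Tcf4, which encodes the E protein E2-2, fell by 1.13 in tumors (SE 0.28, adjusted p = 0.0342). In adjacent tissue Sox4 rose by 0.91 (adjusted p = 0.0194), while the mesenchymal homeobox genes Prrx1 and Prrx2 fell by 1.08 and 1.67 (adjusted p = 0.0362 and 0.00245). Without tumor 1, 2 of the 11 rose and 3 fell in tumors, and without any other array of that comparison 0 were called. In adjacent tissue 6, 3 and 4 were called without adjacent samples 1, 2 and 3, and 2 without any single normal array.

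Of 24 mesenchymal proteins, 3 rose and 1 fell in tumors, and 2 rose and 7 fell in adjacent tissue, with median log2 differences of -0.78 and -0.68, beside 23.5% and 24.8% of all genes called in either direction. Tgfb1, the cytokine that drives EMT in many cultured epithelia, was at least 2.17-fold higher in tumors (adjusted p = 0.0342), with all 3 normal bladders dim. S100a4, a calcium-binding protein of motile cells that leukocytes also make, rose by 1.53 in tumors (SE 0.19, adjusted p = 0.00463) and by 1.08 in adjacent tissue (adjusted p = 0.00347). Tgfbi, a matrix protein, fell by 1.98 in tumors (SE 0.48, adjusted p = 0.0308) and by 1.28 in adjacent tissue (adjusted p = 0.00238). In adjacent tissue the proteoglycan gene Vcan rose by 1.49 (adjusted p = 0.00297), the fibrillin gene Fbn1 fell by 2.06 (adjusted p = 0.0396), and the adhesion gene Ncam1 was at least 2.60-fold lower (adjusted p = 0.0134). Without tumor 1, 3 of the 24 rose and 14 fell in tumors, against 4, 1, 2, 1 and 2 called in all without tumors 2 and 3 and normal samples 1, 2 and 3. In adjacent tissue 12, 8 and 9 were called without adjacent samples 1, 2 and 3, and 6, 5 and 6 without normal samples 1, 2 and 3. Between tumors and adjacent tissue 0 genes were called in these 4 lists, and the smallest unadjusted p by limma was 0.0267, for Cdh13 (log2 difference 0.50).

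**Figure D5:**
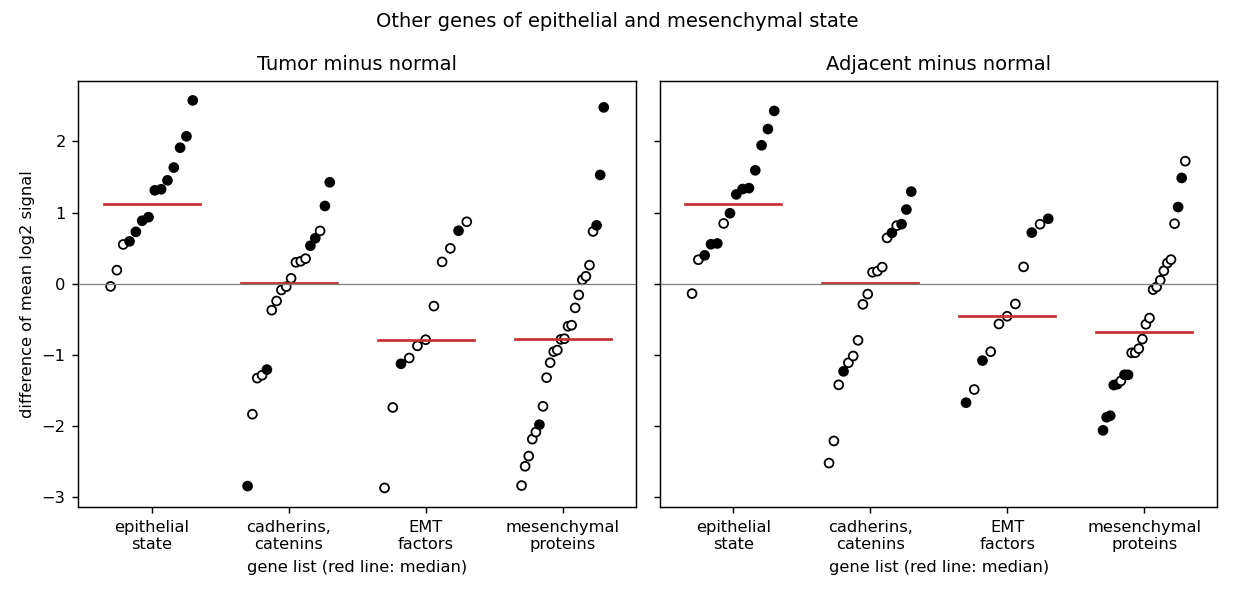
Difference of mean log2 signal for the measured genes of 4 lists, tumor minus normal (left) and adjacent minus normal (right); each point is 1 gene by its brightest probe set, filled where the adjusted p is under 0.05, and red lines are medians. The epithelial state genes centre on a median of 1.12 in both panels, and the mesenchymal proteins spread to both sides of 0 with medians of -0.78 and -0.68.

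As a description of pattern, the genes with the signals most like each member over the 9 arrays were read from Pearson's r against 10861 genes. Cdh2 was most like Sfrp5 and Foxn3 (r = 0.999 and 0.998), Zeb1 most like Eea1 and Lims2 (0.997 and 0.996), and Zeb2 most like Postn and Scarf2 (0.995 and 0.991). Cdh1 was most like Lrrc26 and Hspd1 (0.99 for both), and Cdh3 most like Uqcrc1 and Cdc20 (0.989 and 0.986). Cdh11 was most like Prickle1 and Aldh1a2 (0.99 and 0.982). For Vim the closest were Serpine2 and Timp3 (0.958 and 0.95), and for Snai1 Usp36 and Rogdi (0.937 and 0.919). The 9 points share 3 groups and the spread in wall transcripts described above. Only the 2 closest genes of each member were kept, and how many others reach such values was not counted. A high r here therefore shows no link between genes.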

How the data were processed

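RNA of 9 rat bladder samples was hybridised by the study to Affymetrix arrays after 3′ in vitro transcription labelling. The authors scanned the arrays with Command Console Software and used Gene Spring Software to normalize them by MAS 5.0. Deposited values are signals on a log2 scale: the mean linear signal, trimmed by 2% at either end, was the same on each array. They were used as deposited. The 57 array controls were left out, and the annotation names 1 gene for 20826 of the 31042 probe sets tested, several for 436 and none for 9780; the brightest probe set over 9 arrays stood for each of 14217 genes. Detection calls were not analysed here.

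Limma models took 2 groups at a time in R 4.3.3 with limma 3.58.1 (lmFit, eBayes with a mean-variance trend) on 3 arrays a group, with Benjamini-Hochberg adjustment over all probe sets tested and a threshold of 0.05. The exact permutation test of 3 arrays against 3 cannot give a two-sided p below 0.1. The script was tested on simulated data. Where all arrays of the lower group were under a signal of 50, the fold is given as at least the higher group's mean over 50. That limit, the genes and the lists were chosen with earlier results of these data known. Named list genes are, for each comparison, the 2 largest rises and 2 largest falls among called genes whose groups do not overlap. For likeness, genes with a signal of at least 50 on 6 or more arrays were compared.

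For tumor and adjacent samples of equal number, deviations from the group means had r = 0.523, 0.128 and 0.378 for numbers 1, 2 and 3. The highest r between samples of unequal number was 0.272, so the values do not bear out number 2. The series design calls these samples paired. The differences, intervals and p-values given for tumors against adjacent tissue come from fits without pairing. The pairs entered only as the replicate block among the alternatives. Nothing says that the arrays of a group were prepared apart, beyond coming from separate rats. Alternatives were quantile normalization, median centring, removal of probe sets below the 40th percentile of mean signal, a pseudocount of 50, no variance trend, all 9 arrays in one fit, the test of means that the methods name, averaged probe sets of each gene, the replicate block, and leaving out each array. Leaving out arrays for the list counts was added after seeing the data.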

Additional observations from a re-analysis of the deposited data

How the results depend on the processing

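Of the 9 genes, 4 were called in tumors against normal bladder, 1 without a variance trend, 1 by the methods' t-test after adjustment, and 1 to 8 when an array was left out. In adjacent tissue 5 were called, 2 without a variance trend, 3 with all 9 arrays fitted at once, 3 by the methods' t-test after adjustment, 3 by the mean of probe sets, and 3 to 7 when an array was left out. At the methods' unadjusted threshold that test called 4 and 5. In tumors against adjacent tissue 0 were called under every alternative. With the replicate block 0 were called in tumors against adjacent tissue, so the pairing of those samples changed no call. The block gave 4 and 5 against normal bladder. Normal bladder came from separate rats, so equal numbers match no shared rat there and those counts say nothing about pairing.

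Over all probe sets, 5574 were called in tumors and 5873 in adjacent tissue against normal bladder. These became 2376 and 3414 without a variance trend, 1764 and 2394 by the methods' t-test after adjustment, and 8800 and 8813 unadjusted. The replicate block, which matches no shared rat in these comparisons, gave 3705 and 4717. When an array was left out the counts ranged from 1453 to 9216 and from 2691 to 7198. In tumors against adjacent tissue 0 were called, and 1029 by the unadjusted test.

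By the mean of probe sets, which takes in a Cdh1 probe set that was dim on all arrays, Cdh1 turned to -0.47 in tumors against normal bladder (adjusted p = 0.514). In tumors against adjacent tissue, where nothing was called, it turned to -0.91, Cdh2 to -0.43 and Twist1 to -0.28, and after quantile normalization Cdh1 turned to -0.088 and Vim to -0.053. When an array was left out, Vim ranged from -0.70 to 0.054 in tumors against normal bladder and Cdh11 from -0.69 to 0.16 in adjacent tissue. In tumors against adjacent tissue, Cdh1 then ranged from -0.074 to 0.11, Cdh2 from -0.23 to 0.49, Cdh3 from -0.040 to 0.42, Zeb1 from -0.94 to 0.35, Zeb2 from -0.86 to 0.18, Twist1 from -0.19 to 1.31 and Vim from -0.42 to 0.34. The cause of these changes was not tested. Twist1 gave no value under the filter on low signals. With 3 arrays a group, leaving 1 out also lowers the degrees of freedom, and dim probe sets of Cdh1, Cdh2 and Twist1 set no level.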
